A study of Mus musculus with 6 samples.

Results

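The genes described here are 31 mouse genes of sterol and fatty acid synthesis and of its control, of 17254 gene identifiers counted in cultured neural stem and progenitor cells. They were taken as a list of symbols, with no threshold on a measured value but with earlier results of these data known. They fall on the sides of the pathway led by the transcription factors SREBP2 and SREBP1. Genes of a side share a regulator and are not replicates of each other, so counts of members are descriptions. The SREBP2 side held 20 genes, 8 of them in the mevalonate and isoprenoid steps, 11 in the squalene and sterol steps and 1, Stard4, in sterol transport. The SREBP1 side held 6 genes of fatty acid synthesis, and 5 genes were regulators of both. All 31 were counted in all 6 libraries and all 31 passed the filter on low counts.

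The cells were mouse neural progenitor cells grown in N2 medium supplied with EGF and bFGF, which keep them dividing, and RNA was sequenced after 48 h. The 3 groups of 2 libraries each were untreated control cultures, cultures given PQ and cultures given NAC, and the series text gives the aim as reading gene expression at different intracellular redox potentials. The labels spell out neither PQ nor NAC, and give no dose, strain, age or sex. Whether both libraries of a group are from separate cultures is not stated. P-values therefore reflect only how far these libraries spread, and that spread may be technical.

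Sterol regulatory element-binding proteins (SREBPs) are made as precursors held in the endoplasmic reticulum membrane. When sterols are scarce the escort protein SCAP carries them to the Golgi, where they are cut and released to the nucleus. When sterols are plentiful the INSIG proteins retain SCAP. SREBP2, from Srebf2, chiefly drives cholesterol synthesis and uptake, and SREBP1, from Srebf1, chiefly drives fatty acid synthesis. Both act with partner factors, among them NF-Y, which binds the CCAAT box. Dividing neural progenitors need both products for new membrane.

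Levels are given as CPM, counts scaled to library size adjusted by a TMM factor for library composition (0.978 to 1.02), and compare libraries for 1 gene. Differences are log2 fold changes with their standard error (SE) from edgeR's quasi-likelihood test over 12813 genes. Adjusted p is Benjamini-Hochberg over all genes tested, and "rose" or "fell" is used where it was under 0.05. Each library held 9680436 to 10698241 counts, and the members held from 195 counts (Tm7sf2, its lowest library) to 50265 (Scd2, its highest).

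The control libraries differed from each other on these genes. Control replicate 1 was above control replicate 2 in 29 of the 31 members, with a median difference of 0.21 on the log2 scale, while over all genes tested it was higher in 51.1%. Ggps1 and Fdft1 were the exceptions. PQ replicate 1 was above PQ replicate 2 in 24 of 31, with a median of 0.1 (49.8% of all genes), and NAC replicate 1 above NAC replicate 2 in 15 of 31. The titles number the first libraries 8 (control), 9 (PQ) and 10 (NAC) and the others 11, 12 and 13, and the labels do not say whether such runs are batches.

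Markers of other cell types also moved with treatment. The summed level of 8 astrocyte markers was 128.4 to 140.8 CPM in control, 142.7 to 151.1 in PQ and 266.8 to 266.9 in NAC, where Gfap, Aqp4, Slc1a2, Aldoc and Agt rose against control. Aldoc made up most of that sum, at 162.0 and 161.6 CPM in NAC. Aldh1l1 went the other way, at 4.24 and 3.53 CPM in control, 7.39 and 10.1 in PQ and 3.43 and 2.08 in NAC, and was higher with PQ than with NAC by 1.66 (adjusted p = 0.00013). Gjb6 stayed under 1 CPM in every library. Summed neural stem cell markers (10 genes) ran from 5888.5 to 6086.0 CPM in control, from 6493.5 to 6760.7 in PQ and from 4120.4 to 4165.7 in NAC, and Prom1 and Hes5 of that list were under 1 CPM throughout. Vim carried most of the sum, at 4305.7 and 4058.0 CPM in control and 2466.7 and 2488.7 in NAC. With NAC, Vim (-0.76), Sox2 (-0.31) and Nes (-0.28) fell, and the estimates of Pax6, Nr2e1, Fabp7 and Msi1 were between 0.06 and 0.11. With PQ, Nes (0.34) rose while Sox2 (-0.36) and Nr2e1 (-0.67) fell. Oligodendrocyte lineage markers (12 genes) summed to 1736.8 to 1969.7, 1749.6 to 1939.7 and 2059.9 to 2303.2 CPM, with Sox10, Mog, Mag and Cldn11 under 1 CPM. Neuronal markers (8 genes) summed to 200.8 to 211.5, 187.7 to 197.7 and 323.7 to 363.3 CPM, with Dcx, Rbfox3, Stmn2 and Snap25 under 1 CPM. Map2 alone gave 359.0 and 317.9 CPM of the NAC sums, while Tubb3, at 2.32 and 4.26 CPM in control, fell with NAC (-2.27) and with PQ (-1.65). Gad1 went the other way with PQ and rose (0.93), from 1.92 and 2.08 CPM in control to 3.43 and 4.18 in PQ. Of 7 microglial markers 5 were under 1 CPM in every library. P2ry12, at 3.03 and 3.64 CPM in control and 8.99 and 6.04 in NAC, rose with NAC (1.18). Cx3cr1 passed in neither comparison with control. The 8 fibroblast and endothelial markers summed to 30.6 to 31.9 CPM in control, 20.1 to 21.1 in PQ and 23.8 to 27.6 in NAC. Col3a1 fell with PQ (-0.91), while Dcn, under 1 CPM in both control libraries, rose (2.32). In these bulk cultures fewer cells of a type and less RNA per cell cannot be told apart, and the part of these shifts in the differences below was not tested.

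Per length, as deposited FPKM, the members spanned a wide range in control cultures. Scd2, the main stearoyl-CoA desaturase of brain, had the highest level at 830.1 ± 112 FPKM (SD, n = 2), followed by Hmgcs1, which makes HMG-CoA, at 349 ± 32.6. Scd1 and Fdps came next, at 213.8 ± 26.5 and 213.4 ± 28.5 FPKM, and their library ranges overlapped. Msmo1 (176.5 ± 10.1 FPKM) and Idi1 (158.8 ± 11.6) followed without overlap with their neighbours above. At the low end were Hsd17b7 at 13.5 ± 1.75 FPKM, Ebp at 14.7 ± 1.27, Tm7sf2 at 16.8 ± 2.12, Mvk at 16.8 ± 2.07 and Ggps1 at 17.7 ± 1.34, each overlapping the next. The span in FPKM from Scd2 to Hsd17b7 was thus wider than the difference of any 1 member between groups, where the largest fold was 1.82. Between the transcription factor genes, Srebf2 was above Srebf1 in every library, with a ratio of FPKM from 1.97 to 2.27.

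**Figure D1:**
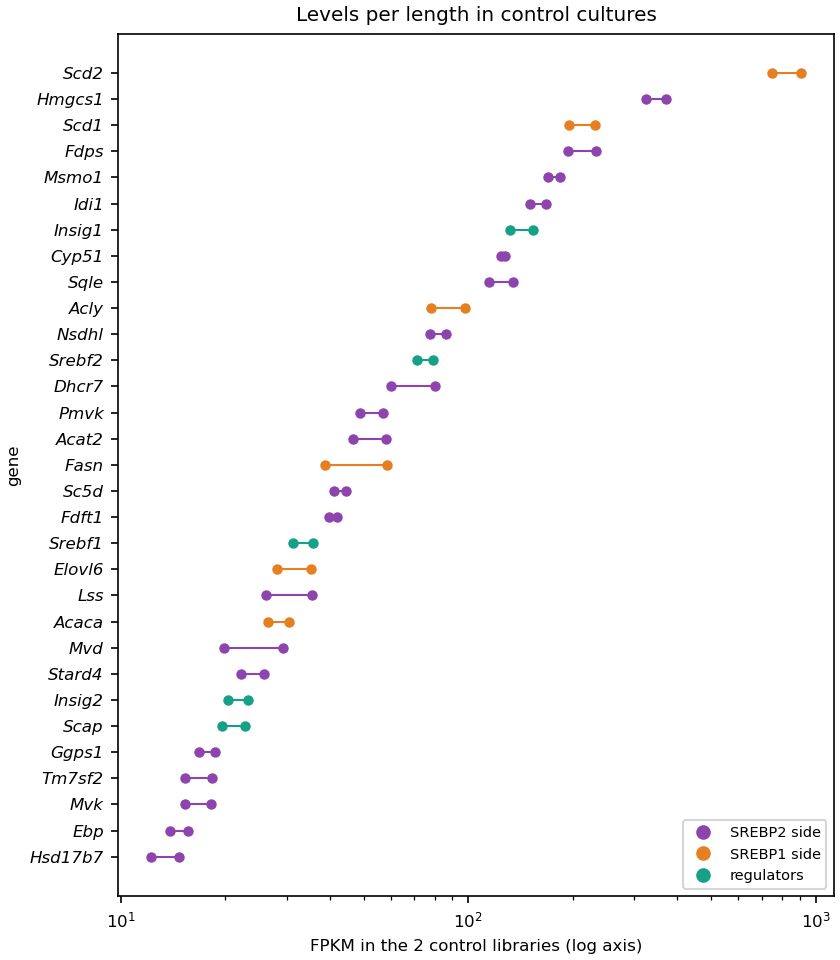
FPKM (log axis) of the 31 genes in the control cultures. Points are the 2 control libraries, joined by a line, ordered by their mean and coloured by side. Scd2 stands highest at 830.1 and Hsd17b7 lowest at 13.5 on average, and many neighbours overlap.

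In PQ against control, 9 of the 31 members passed, 8 higher and 1 lower, where 17.9% of all genes passed in either direction, 9.07% higher and 8.8% lower. All 8 that rose were on the SREBP2 side, 8 of 20, and the gene that fell, Acaca, was on the SREBP1 side. The median log2 fold change was 0.21 over the SREBP2 side, -0.05 over the SREBP1 side and -0.08 over the regulators, beside 0.0 over all genes. Leaving out control replicate 1 gave medians of 0.31 on the SREBP2 side and 0.16 on the SREBP1 side, and leaving out control replicate 2 gave 0.12 and -0.19. The PQ libraries lay wholly above the control libraries for 11 of the 20 SREBP2-side genes, against 29.0% of all genes, and wholly below for 0 of 20, against 28.2%. Fewer members were called when either PQ replicate was left out, and fewer of all genes were called as well. The SREBP2-side median was 0.18 without PQ replicate 1 and 0.3 without PQ replicate 2.

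In NAC against control, 5 members passed, 1 higher and 4 lower, where 17.9% of all genes passed, 8.65% higher and 9.26% lower, so the share of members called was near that of all genes. Pmvk and Fdps fell on the SREBP2 side, Scd1 and Scd2 fell on the SREBP1 side, and Scap rose. The medians were -0.11, -0.23 and -0.02 for the SREBP2 side, the SREBP1 side and the regulators. Without control replicate 1 they were -0.04 on the SREBP2 side and -0.1 on the SREBP1 side, and without control replicate 2 they were -0.19 and -0.34. NAC libraries lay wholly below the control libraries for 9 of 20 SREBP2-side genes and 4 of 6 SREBP1-side genes, against 28.3% of all genes. More members were called without control replicate 2 and fewer without NAC replicate 2, while fewer of all genes were called in both cases.

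Set directly against each other, the treatments differed in 17 members, 16 higher with PQ and 1 lower, where 30.6% of all genes passed, 15.5% higher and 15.1% lower. On the SREBP2 side 13 of 20 rose and all 20 estimates were above 0, with a median of 0.36. PQ libraries lay wholly above NAC libraries in 17 of the 20, against 33.1% of all genes, and wholly below in 0, against 32.9%. The SREBP1 side had 2 of 6 higher, with a median of 0.07, and the regulators 1 higher and 1 lower of 5, with a median of -0.18. Whether the sides differed from each other was not tested. Fewer members were called when PQ replicate 1 or NAC replicate 1 was left out, and fewer of all genes were called as well. The SREBP2-side median was 0.3 without PQ replicate 1 and 0.35 without NAC replicate 1. The comparisons with control share the control libraries, so their values are given side by side and their likeness is not read as a result.

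**Figure D2:**
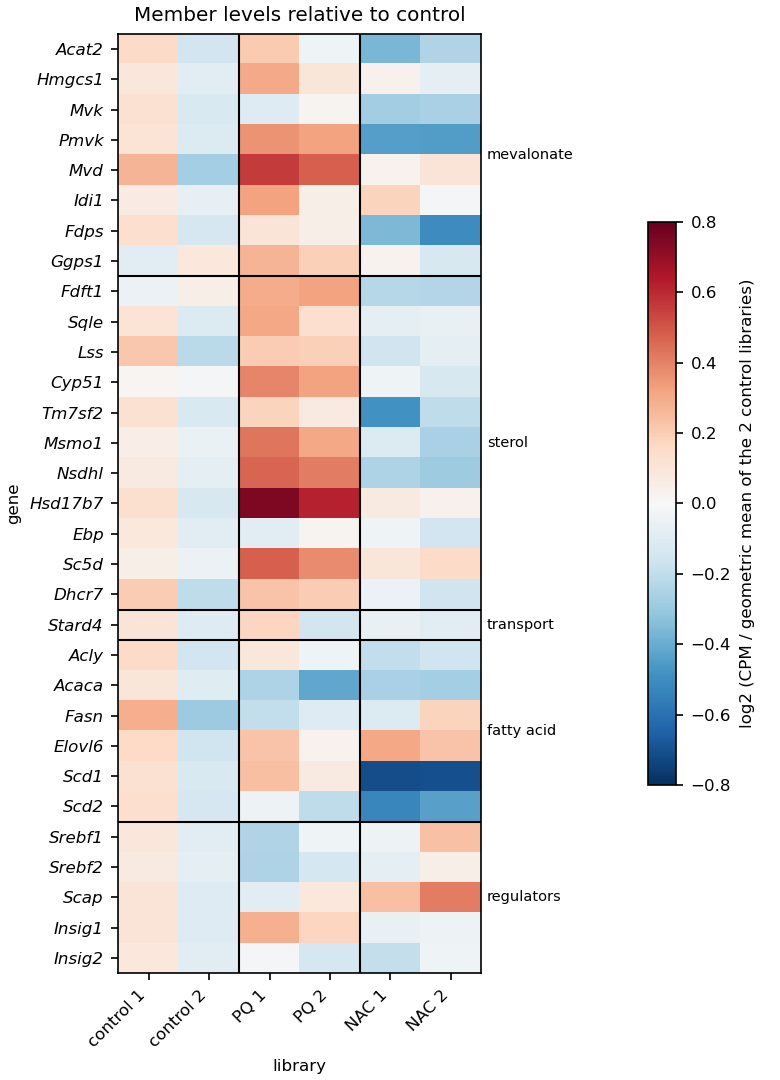
Colour gives log2 of a library's CPM over the geometric mean of the 2 control libraries, for the 31 genes (lines) in the 6 libraries (columns), grouped by step. Most sterol genes are red in both PQ libraries, Scd1 and Scd2 are the deepest blue of the fatty acid genes in both NAC libraries, and the control libraries themselves differ in shade.

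**Figure D3:**
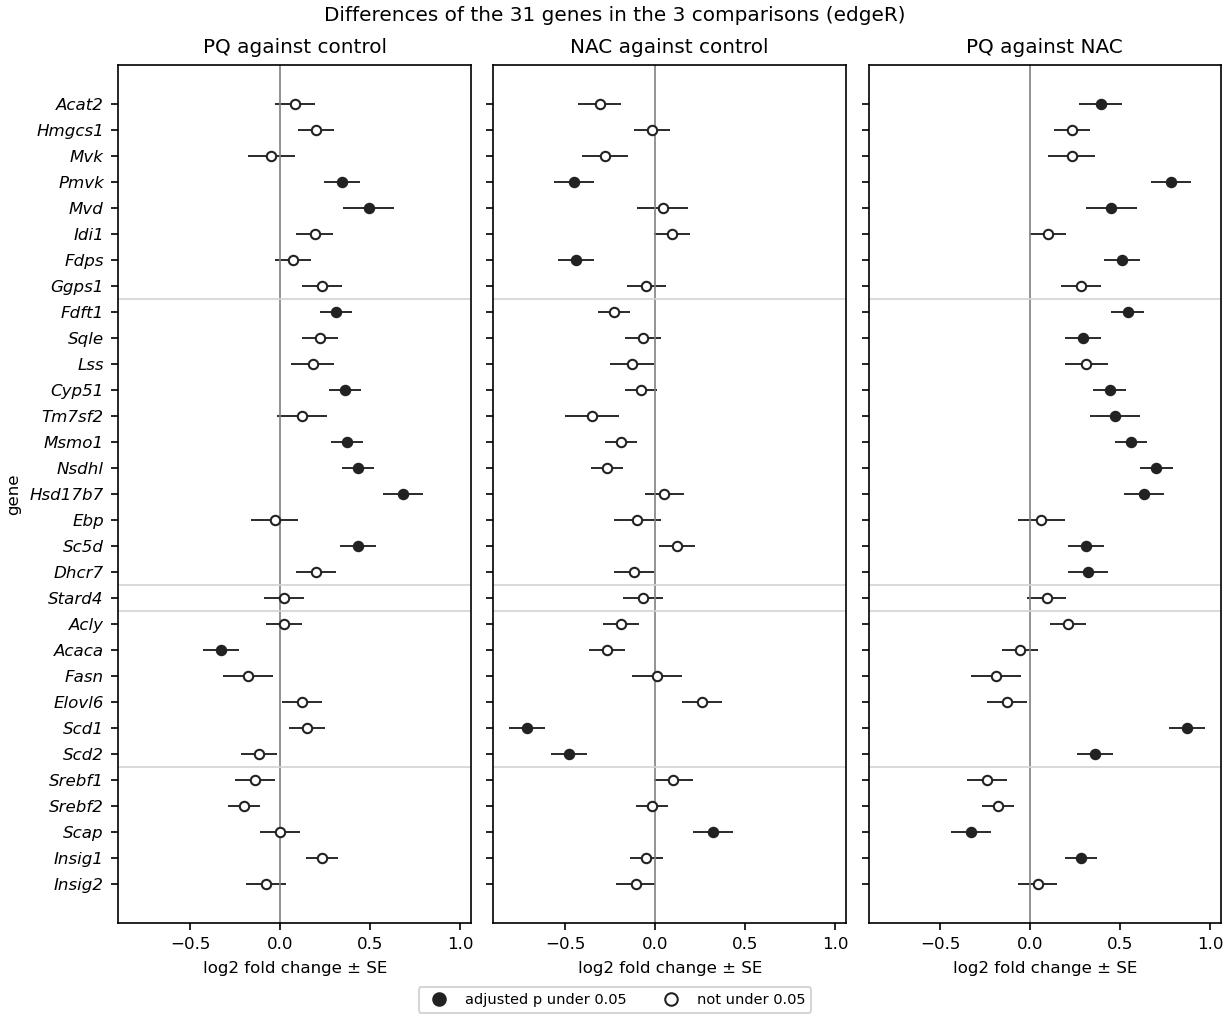
Log2 fold change ± SE of the 31 genes in the comparisons of PQ with control, NAC with control and PQ with NAC. Filled points had an adjusted p under 0.05 (9, 5 and 17 genes), and all 20 SREBP2-side points lie right of 0 in PQ against NAC.

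The mevalonate steps begin with Acat2, which condenses acetyl-CoA, and Hmgcs1, which adds a further acetyl unit. Mvk and Pmvk then phosphorylate mevalonate in turn. Mvd decarboxylates the product to isopentenyl diphosphate, Idi1 isomerises it, and Fdps and Ggps1 join these units into farnesyl and geranylgeranyl diphosphate. Of these 8, Pmvk and Mvd rose with PQ against control, Pmvk and Fdps fell with NAC, and Acat2, Pmvk, Mvd and Fdps were higher with PQ than with NAC.

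Pmvk was at 68.6 and 59.1 CPM in the control libraries, 81.7 and 79.6 in PQ, and 46.9 and 46.8 in NAC. The groups did not overlap in any pair, with PQ highest and NAC lowest. Against control Pmvk rose by 0.34 ± 0.1 (log2, SE) with PQ (adjusted p = 0.031) and fell by 0.45 ± 0.11 with NAC (adjusted p = 0.0062). PQ was above NAC by 0.78 ± 0.11 (adjusted p = 1.9e-05), the largest difference on the SREBP2 side. The rise with PQ was not called by DESeq2 (adjusted p = 0.061), nor without control replicate 2 (0.22), PQ replicate 1 (0.14) or PQ replicate 2 (0.14). The fall with NAC was not called without control replicate 1 (0.066).

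Fdps was at 299.9 and 250.0 CPM in control, 294.6 and 282.6 in PQ, and 213.4 and 193.1 in NAC. Control and PQ overlapped and both NAC libraries were below them. Fdps fell by 0.44 ± 0.1 with NAC against control (adjusted p = 0.0053), and PQ was above NAC by 0.51 ± 0.1 (adjusted p = 0.00094). Its difference of 0.07 between PQ and control did not pass. Leaving out control replicate 1 (adjusted p = 0.069) or NAC replicate 2 (0.078) ended the call against control.

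Mvd was at 52.0 and 35.6 CPM in control, the widest relative spread between control libraries among these 8 genes, at 63.5 and 59.9 in PQ, and at 43.8 and 46.3 in NAC. Both PQ libraries were above the others, and the NAC libraries lay between the controls. It rose by 0.49 ± 0.14 with PQ (adjusted p = 0.019), and PQ was above NAC by 0.45 ± 0.14 (adjusted p = 0.017). Leaving out control replicate 2 (adjusted p = 0.22), PQ replicate 1 (0.11) or PQ replicate 2 (0.077) ended the former. The call against NAC was lost on FPKM (adjusted p = 0.063) and without PQ replicate 1 (0.1), PQ replicate 2 (0.054) or NAC replicate 1 (0.11).

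Acat2 was at 121.8 and 98.7 CPM in control, 126.5 and 107.1 in PQ, and 85.2 and 92.8 in NAC. PQ overlapped control, and both NAC libraries were lower than the rest. PQ was above NAC by 0.39 ± 0.12 (adjusted p = 0.015), a call lost without PQ replicate 1 (0.21) or NAC replicate 1 (0.12). Against control its difference with NAC was -0.31 (adjusted p = 0.072), and it was called without control replicate 2 (0.011) and with genes of at least 1 count kept (0.031). Acat2 has a near copy, Acat3, with which its reads may be shared. Summed over both genes the PQ to NAC difference was 0.31.

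The other 4 genes of these steps passed in no comparison of the fit over all 6 libraries. Hmgcs1 was at 1246.1 and 1101.2 CPM in control, 1448.3 and 1251.9 in PQ, and 1200.6 and 1108.7 in NAC, with PQ above both other groups by a narrow margin and log2 differences of 0.2 against control and 0.23 against NAC. Idi1 overlapped between all groups, at 445.9 to 584.0 CPM. Mvk ran from 23.9 to 31.5 CPM with the NAC libraries lowest, and Ggps1 from 39.3 to 51.9 CPM with the PQ libraries highest. Over NAC, PQ was called for Hmgcs1 with genes of at least 1 count kept (adjusted p = 0.042), and for Ggps1 with the 2 groups fitted alone (0.045) or without control replicate 1 (0.048) or 2 (0.049).

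The sterol steps held most of the SREBP2-side rises with PQ. Fdft1 joins farnesyl units into squalene, Sqle oxidises it and Lss closes the ring to lanosterol. Cyp51 removes a methyl group from lanosterol and Tm7sf2 reduces the product. Msmo1, Nsdhl and Hsd17b7 then act together to strip the remaining pair of methyl groups, and Ebp, Sc5d and Dhcr7 finish the ring towards cholesterol. Of these 11 genes, Fdft1, Cyp51, Msmo1, Nsdhl, Hsd17b7 and Sc5d rose with PQ against control, 6 of 11 beside 9.07% of all genes. With NAC against control 0 of the 11 passed with edgeR, DESeq2 or limma on FPKM, and 3 had an unadjusted edgeR p under 0.05, all 3 lower. Between PQ and NAC 9 of 11 were higher with PQ, all but Lss and Ebp, beside 15.5% of all genes.

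Msmo1, Nsdhl and Hsd17b7 act in sequence, and with Pmvk had the largest differences between PQ and NAC on the SREBP2 side. Their promoters from RefSeq are shown as the 250 bases before the annotated start, read 5′ to 3′ on the gene's strand (GRCm38.p6). Capitals mark the CCAAT box or its reverse complement ATTGG.

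Pmvk, chr3:89454291-89454540, + strand: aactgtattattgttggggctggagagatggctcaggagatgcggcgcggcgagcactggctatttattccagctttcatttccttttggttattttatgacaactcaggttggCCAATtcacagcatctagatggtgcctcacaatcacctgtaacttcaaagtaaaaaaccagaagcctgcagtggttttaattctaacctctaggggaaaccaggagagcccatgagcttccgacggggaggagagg
Nsdhl, chrX:72918271-72918520, + strand: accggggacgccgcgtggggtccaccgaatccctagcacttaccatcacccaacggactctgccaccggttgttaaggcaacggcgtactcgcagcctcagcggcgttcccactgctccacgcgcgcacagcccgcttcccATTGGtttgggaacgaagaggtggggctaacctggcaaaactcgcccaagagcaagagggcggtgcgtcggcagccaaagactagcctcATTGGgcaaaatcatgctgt
Hsd17b7, chr1:169969206-169969455, - strand: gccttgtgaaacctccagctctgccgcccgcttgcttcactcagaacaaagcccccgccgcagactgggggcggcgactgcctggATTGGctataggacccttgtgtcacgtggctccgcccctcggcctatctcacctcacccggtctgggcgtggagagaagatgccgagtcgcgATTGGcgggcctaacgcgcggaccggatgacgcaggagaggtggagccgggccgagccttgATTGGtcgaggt
Msmo1, chr8:64733579-64733828, - strand: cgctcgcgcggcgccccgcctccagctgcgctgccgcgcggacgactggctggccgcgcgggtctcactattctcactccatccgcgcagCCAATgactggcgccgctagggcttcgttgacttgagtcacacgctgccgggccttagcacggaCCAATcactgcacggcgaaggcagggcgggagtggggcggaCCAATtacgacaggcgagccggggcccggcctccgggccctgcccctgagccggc

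Pmvk held 1 box in this stretch, 136 bases before the start, and a second annotated start had none. Nsdhl held 2, at 109 and 20 bases before the start, Hsd17b7 held 3, at 165, 73 and 12, and Msmo1 held 3, at 160, 96 and 55. Windows of 300 bases, from 250 before to 50 after a start, were matched for 25 of the 31 members (not Fdps, Fdft1, Sqle, Stard4, Scd1 or Scd2). A gene was counted once, whichever of its windows held the motif on either strand. CCAAT was found in 15 of the 16 SREBP2-side genes with a window, all but Acat2, in 2 of 4 SREBP1-side genes and in 4 of 5 regulators, beside 43.5% of tested genes and 37.4% of 32851 windows.

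The GC box GGGCGG was in 14 of the 16 SREBP2-side genes, beside 69.1% of tested genes and 35.7% of windows, and the E-box CACGTG in 3 of 16, beside 11.8% and 7.15%. Each motif was searched alone on both strands, so matches that share bases were each counted. The core TCACNCCAC of the sterol regulatory element was found in 1 of 16, Hmgcs1, beside 1.38% of tested genes and 1.24% of windows. That match is shown in capitals with 8 bases on each side, and lies 137 bases before the start.

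Hmgcs1, chr13:119690206-119690230, + strand: tcaccgtcTCACCCCACttcccagg

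A match describes letters in a window and is not evidence of binding. The CCAAT box was also in Mvk and Ebp, whose PQ and control libraries overlapped.

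**Figure D4:**
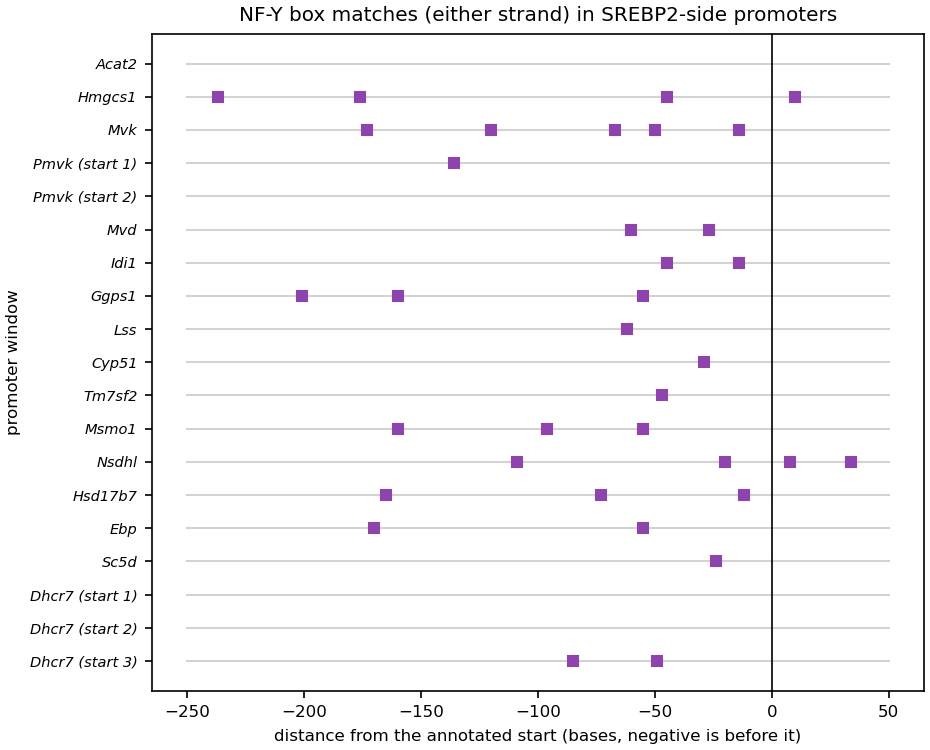
Position of CCAAT matches on either strand (squares) in the 300-base promoter windows of the 16 SREBP2-side genes that have one, in bases from the annotated start (vertical line, negative is before it). Pmvk and Dhcr7 have several annotated starts, drawn as separate windows, and Acat2 has no match.

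Hsd17b7 had the lowest FPKM of the list in control, overlapping Ebp, and the largest rise of the 31 genes with PQ. It was at 68.7 and 57.7 CPM in control, 105.8 and 96.6 in PQ, and 66.2 and 64.5 in NAC. Both PQ libraries were far above the other 4, and NAC lay within the control range. The rise with PQ was 0.68 ± 0.11, or 1.6-fold (adjusted p = 0.00028), and PQ was above NAC by 0.63 ± 0.11 (adjusted p = 0.00018). Both calls were kept under all 15 alternatives.

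Nsdhl was at 194.0 and 176.2 CPM in control, 254.9 and 245.6 in PQ, and 156.1 and 151.5 in NAC. No groups overlapped, with PQ highest and NAC lowest, as for Pmvk. It rose by 0.43 ± 0.09 with PQ (adjusted p = 0.0031), and PQ was above NAC by 0.7 ± 0.09, or 1.63-fold (adjusted p = 1.6e-05), both under all 15 alternatives. The NAC difference from control was -0.27 ± 0.09 (adjusted p = 0.055), called without control replicate 2 (0.042).

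Msmo1 was at 338.5 and 314.9 CPM in control, 440.2 and 403.9 in PQ, and 302.2 and 272.2 in NAC. Again PQ was highest and NAC lowest with no overlap. The rise with PQ was 0.37 ± 0.09 (adjusted p = 0.01), and PQ was above NAC by 0.56 ± 0.09 (adjusted p = 0.0002). The former was not called without control replicate 2 (adjusted p = 0.063) or PQ replicate 1 (0.12).

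Cyp51 was at 567.9 and 557.3 CPM in control, 739.0 and 703.6 in PQ, and 549.3 and 515.3 in NAC. Its control libraries were the closest of all the sterol genes, and PQ stood above both other groups. Both NAC libraries lay below both controls, a difference of -0.08 that did not pass. Cyp51 rose by 0.36 ± 0.09 with PQ (adjusted p = 0.0079), and PQ was above NAC by 0.44 ± 0.09 (adjusted p = 0.00085). Only leaving out PQ replicate 1 ended the first call (adjusted p = 0.08).

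Fdft1 was at 116.8 and 124.4 CPM in control, 148.1 and 150.4 in PQ, and 102.8 and 102.5 in NAC. The 3 groups were separate, and replicates lay close together in PQ and NAC. Fdft1 rose by 0.31 ± 0.09 with PQ (adjusted p = 0.028), and PQ was above NAC by 0.54 ± 0.09 (adjusted p = 0.00024). The rise over control was not called once control replicate 1 (adjusted p = 0.12), PQ replicate 1 (0.11) or PQ replicate 2 (0.18) was removed. Of its exonic bases 18.3% overlap Ctsb on the opposite strand, and whether counting used the strand is not given in the sources used here.

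Sc5d was at 101.3 and 94.7 CPM in control, 136.6 and 127.4 in PQ, and 104.8 and 108.7 in NAC. NAC was also just above control here, unlike for most sterol genes, by 0.12, which did not pass. The rise with PQ was 0.43 ± 0.1 (adjusted p = 0.0044), not called without PQ replicate 1 (0.06). PQ was above NAC by 0.31 ± 0.1 (adjusted p = 0.02), a call lost without PQ replicate 1 (0.18), PQ replicate 2 (0.056), NAC replicate 1 (0.13) or NAC replicate 2 (0.065).

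Of the sterol genes, Sqle, Tm7sf2 and Dhcr7 were called between PQ and NAC and in neither comparison with control, and the PQ libraries were above both NAC libraries in each. Sqle was at 375.4 and 323.8 CPM in control, 431.5 and 382.8 in PQ, and 331.6 and 334.6 in NAC, a difference of 0.29 ± 0.1 (adjusted p = 0.031). Tm7sf2 was at 28.7 and 26.6 CPM in PQ and 18.1 and 22.0 in NAC, a difference of 0.47 ± 0.14 (adjusted p = 0.02). It shares 12.1% of its exonic bases with Vps51 on the same strand. Dhcr7 was at 237.0 and 232.4 CPM in PQ and 195.5 and 180.6 in NAC, a difference of 0.32 ± 0.11 (adjusted p = 0.04).

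These 3 calls were not stable. Sqle lost its call on FPKM (adjusted p = 0.065) and without PQ replicate 1 (0.29), NAC replicate 1 (0.13) or NAC replicate 2 (0.11). Tm7sf2 lost it with DESeq2 (0.053) and without PQ replicate 1 (0.13), PQ replicate 2 (0.055) or NAC replicate 1 (0.21). Dhcr7 lost it on FPKM (0.099) and without PQ replicate 1 (0.16), PQ replicate 2 (0.13), NAC replicate 1 (0.075) or NAC replicate 2 (0.21). Without control replicate 1, the PQ rise over control was called for Sqle (0.044), Dhcr7 (0.01) and Lss (0.016).

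Lss was at 115.5 and 86.0 CPM in control, 114.6 and 113.7 in PQ, and 89.1 and 94.8 in NAC, and its difference of 0.31 between PQ and NAC had an adjusted p of 0.052. That difference was called with the 2 groups fitted alone (0.0098), with genes of at least 1 count kept (0.018), with a robust fit (0.042) and without control replicate 1 (0.011) or 2 (0.012). Ebp lay between 23.5 and 27.7 CPM in every library and Stard4, a carrier of cholesterol between membranes, between 66.1 and 82.4, with groups overlapping in all comparisons of both. The PQ to control difference of Ebp was -0.03 ± 0.13.

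On the fatty acid side, Acly makes cytosolic acetyl-CoA from citrate, Acaca carboxylates it to malonyl-CoA and Fasn builds palmitate. Elovl6 lengthens palmitate, and the desaturases Scd1 and Scd2 put in the first double bond. The desaturases fell with NAC, Acaca fell with PQ, and Acly, Fasn and Elovl6 passed in no comparison.

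Scd1 was at 1152.4 and 975.1 CPM in control, 1254.5 and 1112.1 in PQ, and 648.9 and 650.2 in NAC. Control and PQ overlapped, and the NAC libraries lay close together at a lower level. Scd1 fell by 0.71 ± 0.1 (log2, SE) with NAC (adjusted p = 4.5e-05), which is a level lower by -38.9%. PQ was above NAC by 0.87 ± 0.1, or 1.82-fold (adjusted p = 3e-06), the largest difference of the 31 genes. Both calls were kept under all 15 alternatives.

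Scd2 was at 5079.9 and 4227.8 CPM in control, 4514.8 and 4028.5 in PQ, and 3225.7 and 3425.1 in NAC. The NAC libraries were again the lowest, and PQ reached below the controls. Scd2 fell by 0.48 ± 0.1 with NAC (adjusted p = 0.0019), called under all 15 alternatives. PQ was above NAC by 0.36 ± 0.1 (adjusted p = 0.0093), lost without PQ replicate 1 (0.11) or NAC replicate 1 (0.089).

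Scd1 and Scd2 are near copies whose reads may be split between them, and their counts in all 6 libraries were estimates that are not whole. In all 6 libraries the counts of Acat2, Idi1, Ggps1, Cyp51, Sc5d and Elovl6 were also not whole, and in 4 libraries those of Hsd17b7 were not. Summed over Scd1 to Scd4, the differences were -0.07 with PQ, -0.52 with NAC and 0.46 between PQ and NAC. The ratio of Scd2 to Scd1 in FPKM was 3.91 and 3.85 in control, 3.19 and 3.21 in PQ, and 4.41 and 4.67 in NAC. The 3 groups thus had ratios that did not overlap.

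Acaca was at 283.6 and 248.7 CPM in control, 223.6 and 199.3 in PQ, and 221.4 and 219.8 in NAC. Both treatments lay below both controls. It fell by 0.33 ± 0.1 with PQ (adjusted p = 0.024), while the difference with NAC of -0.27 had an adjusted p of 0.062. The PQ call was lost on FPKM (0.084) and without control replicate 1 (0.16) or PQ replicate 2 (0.28). The NAC call was made without control replicate 2 (0.028) and with genes of at least 1 count kept (0.046).

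Fasn was at 593.7 and 398.1 CPM in control, 424.6 and 452.8 in PQ, and 450.6 and 550.1 in NAC. The control libraries enclosed all the others, and its differences of -0.18, 0.01 and -0.19 did not pass. Without control replicate 2, PQ was called lower, at -0.44 (adjusted p = 0.012). Acly was at 442.9 and 357.0 CPM in control, 422.6 and 388.2 in PQ, and 347.2 and 355.3 in NAC, and its fall with NAC was called only without control replicate 2 (0.039). Elovl6 was at 214.7 and 172.8 CPM in control, 225.7 and 196.5 in PQ, and 238.2 and 225.2 in NAC, where NAC was called higher only without control replicate 1 (0.011).

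**Figure D5:**
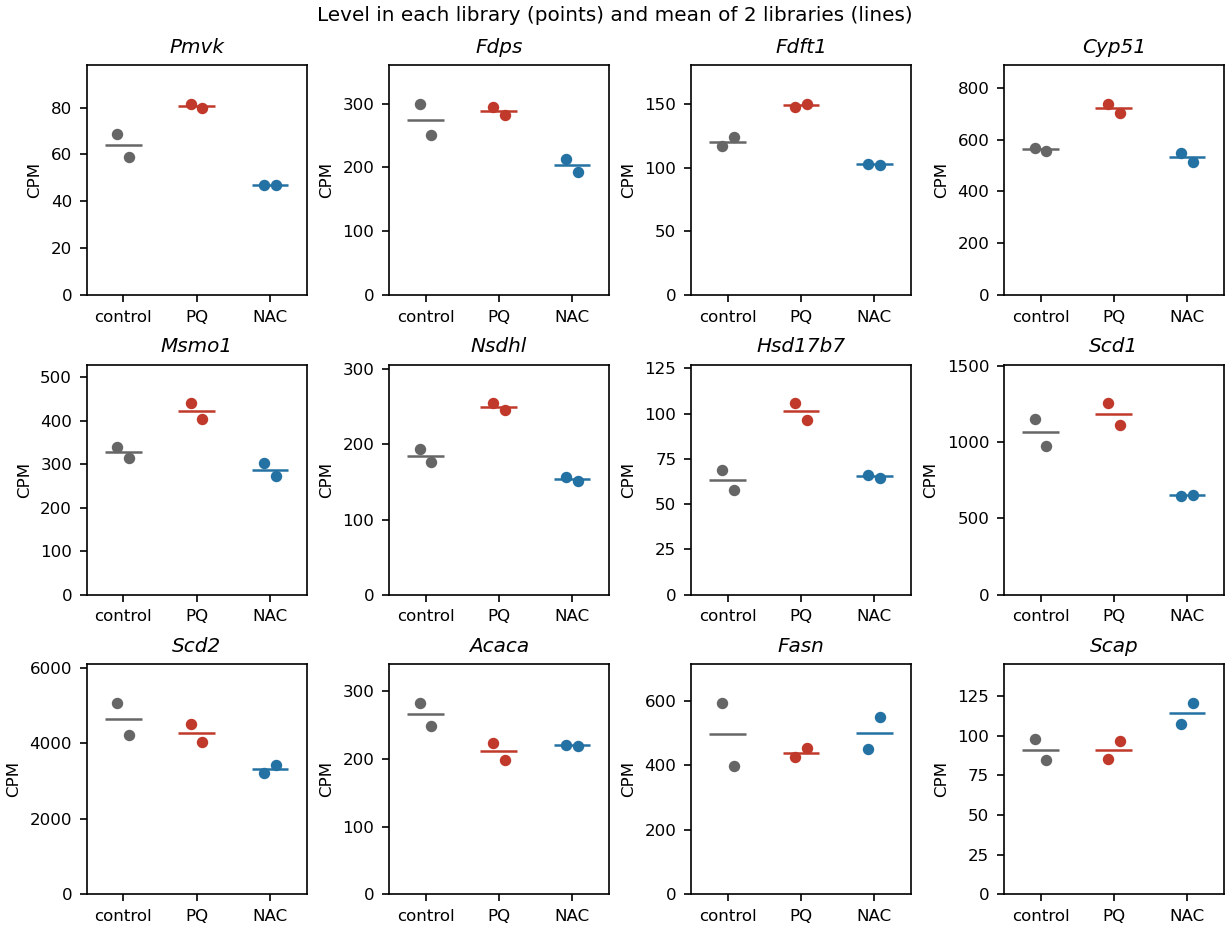
CPM in each library (points) and the mean of 2 libraries (lines) for 12 members, with each axis starting at 0. Pmvk, Fdft1, Cyp51, Msmo1 and Nsdhl have PQ above control above NAC, Scd1 and Scd2 have NAC lowest, and Fasn shows the wide gap between the control libraries.

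Among the regulators the differences were small. Insig1, itself an SREBP target that retains SCAP, was at 416.8 and 360.7 CPM in control, 473.0 and 436.0 in PQ, and 371.8 and 377.3 in NAC. PQ was above both other groups, by 0.28 ± 0.09 over NAC (adjusted p = 0.032) and by 0.23 over control, which did not pass (0.11). The call over NAC was lost on FPKM (0.064) and without PQ replicate 1 (0.24), PQ replicate 2 (0.065), NAC replicate 1 (0.14) or NAC replicate 2 (0.11). Over control, a call was made without control replicate 1 (0.038).

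Scap was at 97.6 and 84.7 CPM in control, 85.3 and 96.6 in PQ, and 107.4 and 120.8 in NAC. PQ lay within the control range, and both NAC libraries were above it. Scap rose by 0.32 ± 0.11 with NAC against control (adjusted p = 0.044), and PQ was below NAC, by -0.33 ± 0.11 (adjusted p = 0.027). The first call was lost with DESeq2 (0.068), with the 2 groups fitted alone (0.052), on FPKM (0.063), and without control replicate 2 (0.23), PQ replicate 1 (0.055), PQ replicate 2 (0.059), NAC replicate 1 (0.053) or NAC replicate 2 (0.28). The call between PQ and NAC was lost on FPKM (0.06) and without PQ replicate 1 (0.24) or NAC replicate 2 (0.21).

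The promoters of Insig1 and Scap differ in the CCAAT box. Insig1 held 1 match, 216 bases before the start, and Scap held 0 over the same 250 bases. Windows of Srebf1, Srebf2 and Insig2, called in no comparison of the fit over all 6 libraries, also held the box. The stretches of Insig1 and Scap are shown with the match in capitals.

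Insig1, chr5:28071162-28071411, + strand: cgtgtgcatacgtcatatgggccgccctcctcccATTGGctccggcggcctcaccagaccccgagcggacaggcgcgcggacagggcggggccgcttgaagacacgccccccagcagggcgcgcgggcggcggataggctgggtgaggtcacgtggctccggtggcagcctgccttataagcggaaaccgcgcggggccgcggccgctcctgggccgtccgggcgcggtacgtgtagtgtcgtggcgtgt
Scap, chr9:110333038-110333287, + strand: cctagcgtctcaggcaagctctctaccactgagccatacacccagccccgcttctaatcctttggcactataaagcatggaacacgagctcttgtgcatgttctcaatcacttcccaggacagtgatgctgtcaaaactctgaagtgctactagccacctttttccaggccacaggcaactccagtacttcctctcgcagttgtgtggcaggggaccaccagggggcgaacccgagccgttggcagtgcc

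Srebf2 was at 370.7 and 336.1 CPM in control, 297.1 and 319.7 in PQ, and 334.6 and 364.2 in NAC, so both PQ libraries were below the other 4. Its differences of -0.2 against control and -0.18 against NAC did not pass, with adjusted p of 0.16 for both. Srebf1 was at 157.2 and 138.9 CPM in control, 125.0 and 144.4 in PQ, and 143.4 and 174.2 in NAC, overlapping throughout, and was called lower in PQ than in NAC only without NAC replicate 1 (0.049). Insig2, the other INSIG gene, lay between 48.8 and 59.0 CPM in every library. Neither factor gene was called in the fit over all 6 libraries. SREBP activity is also set by cutting of the protein, which RNA counts do not measure. The ratio of Insig1 to Insig2 in FPKM was 6.62 and 6.45 in control, 8.04 and 8.15 in PQ, and 7.2 and 6.48 in NAC.

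Of 12 other genes known as SREBP targets, 2 passed in PQ against control, 4 in NAC against control and 4 in PQ against NAC, where 17.9%, 17.9% and 30.6% of all genes did, and most did not pass. Me1, a source of NADPH, rose by 0.29 and Tmem97, a sterol-responsive membrane protein, fell by 0.47 with PQ. With NAC, Acss2, which activates acetate, fell by 1.22 ± 0.11 (adjusted p = 4.4e-07), Tmem97 fell by 0.44 and the desaturase Fads1 fell by 0.3, while Gpam, which starts glycerolipid synthesis, rose by 0.61. Between PQ and NAC, Acss2 (1.02) and Lpin1 (0.42) were higher with PQ and Gpam (-0.83) and Mid1ip1 (-0.4) lower.

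Of 17 tested genes of other fatty acid steps, 0 passed in PQ against control with edgeR, DESeq2 or limma on FPKM, and 2 had an unadjusted edgeR p under 0.05. With NAC 4 of 17 passed, 2 higher and 2 lower, beside 17.9% of all genes in either direction. The mitochondrial citrate carrier Slc25a1 fell by 0.65 ± 0.1 (adjusted p = 0.00013) and the acyl-CoA synthetase Acsl4 fell by 0.75. The elongation genes Hacd2 (0.49) and Hacd3 (0.41) rose. Between PQ and NAC 5 of 17 passed, 3 higher and 2 lower with PQ, beside 30.6% of all genes in either direction. Slc25a1 (0.78), Acsl3 (0.46) and Acsl4 (0.9) were higher and Elovl7 (-1.07) and Hacd3 (-0.31) lower with PQ than with NAC.

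Of 13 tested genes that use isoprenoids, 2 passed in each comparison, a count near or under the shares of all genes (17.9%, 17.9% and 30.6%). With PQ the farnesyltransferase subunit gene Fnta was higher by 0.38 and Fntb lower, at -0.35, but DESeq2 called 0 of the 13 and limma on FPKM called 1 higher. With NAC Fntb fell by 0.49 and Rabggta, a subunit of the enzyme that prenylates Rab proteins, fell by 0.77. Rabggta (1.15) was higher and Coq2 (-0.65), of ubiquinone synthesis, lower with PQ than with NAC.

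Of 10 genes that process or degrade the SREBP machinery, 2 fell with PQ, beside 8.8% of all genes, and 1 of them by DESeq2. The protease gene Mbtps1 fell by 0.31 and Erlin1 fell by 0.35 with PQ against control, and Mbtps1 was lower with PQ than with NAC (-0.5). With NAC 0 of 10 passed with edgeR, DESeq2 or limma on FPKM, and 3 had an unadjusted edgeR p under 0.05.

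Of 10 tested genes of sterol efflux under the nuclear receptor LXR, 2 rose with PQ and 4 with NAC, beside 9.07% and 8.65% of all genes. DESeq2 called 2 of them higher in each. Apoe rose by 1.3 ± 0.17 with PQ and by 1.96 ± 0.17 with NAC, and the exporter Abca1 by 1.01 ± 0.12 and 0.69 ± 0.12. Mylip (0.8) and Rxra (0.36) rose with NAC as well. Between PQ and NAC, Nr1h2 (0.51) and Abca1 (0.31) were higher and Apoe (-0.66), Mylip (-0.65) and Rxra (-0.42) lower with PQ. The summed astrocyte markers were also highest in the NAC libraries, though not Aldh1l1, and their part in the Apoe difference was not tested.

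Of 16 tested genes of fatty acid oxidation, 5 passed in PQ against control, 3 in NAC against control and 6 in PQ against NAC. The shares of all genes were 17.9%, 17.9% and 30.6%, and the NAC against control count was near its share. The counts with PQ include 1 gene not reported here. Cpt1a, the gate for entry of fatty acids into mitochondria, fell by 0.38 with PQ and rose by 0.41 with NAC. It was lower with PQ than NAC by -0.79 ± 0.11 (adjusted p = 2.5e-05). Against control, Cpt1c (0.66) rose and Echs1 (-0.63) and Acat1 (-0.53) fell with PQ, and Hadhb (0.29) rose and Echs1 (-0.36) fell with NAC. Between PQ and NAC, Cpt1c (0.54) was higher and Acat1 (-0.45), Hadhb (-0.36) and Acadl (-0.28) lower with PQ.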

How the data were processed

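RNA was extracted with TRIZOL and sequenced on the BGISEQ-500, and both rRNA depletion and oligo dT selection are named without saying which was applied, per the labels' protocols. The authors deposited 1 table per library with expected counts, FPKM and a length per gene, per the file headers. Bowtie2 2.2.5, HISAT2 2.0.4, RSEM and the mm10 build were listed, without roles, per the submitters' processing notes. Of the deposited expected counts 20.9% to 21.4% were not whole, and a gene that a table did not list was set to 0. Of 17254 identifiers 17199 carried a name, and the rest held 0.072% to 0.079% of the counts.

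Expected counts were rounded and tested with edgeR 4.0.16 (R 4.3.3), with filterByExpr (minimum count 10, minimum total 15, 12813 genes kept), TMM scaling and 1 mean per group over all 6 libraries, leaving 3 residual degrees of freedom. SE is the absolute log2 fold change over the square root of F. The test was checked on simulated data. The 31 members and the gene lists were chosen with earlier results of these data known. All members are accounted for, each other list is given by its counts with up to 4 members of smallest p or all that moved where 5 or fewer did (1 gene of fatty acid oxidation is not reported here), and promoters were taken from members called, by size of difference. Alternatives were DESeq2 1.42.0, RLE or library-size scaling, filters of a total of 1 count or of 1 CPM in 2 libraries, the 2 groups alone, a robust fit, limma 3.58.1 on log2 of the deposited FPKM plus 1 or 0.1, each library left out, and, added after seeing the data, runs of title numbers as a term. Figures used Python 3.11.15, pandas 2.3.3 and matplotlib 3.10.9.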

Additional observations from a re-analysis of the deposited data

How the results depend on the processing

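Of 1395 values of the 93 member differences under 15 alternatives, 43 changed sign, 37 of them with 1 library left out, and 0 of these were differences called in the fit over all 6 libraries. The labels give no pairing, because the groups share no library number and no library is tied to one of another group. With the runs of title numbers (8 to 10 and 11 to 13) as a term, chosen after seeing the data, 7, 4 and 16 members were called. Of all genes 14.4%, 14.8% and 27.2% were called with that term. The members called were all among the 9, 5 and 17. The calls lost were Pmvk (adjusted p = 0.051) and Fdft1 (0.053) in PQ against control, Scap in NAC against control (0.079) and Insig1 in PQ against NAC (0.053). With 1 library left out, the lone library of its group is assumed to vary like the other groups. The members called then ranged from 3 to 11 in PQ against control, from 3 to 8 in NAC against control and from 8 to 19 in PQ against NAC, and the SREBP2-side median from 0.12 to 0.31, from -0.19 to -0.04 and from 0.3 to 0.42. The SREBP1-side median ranged from -0.19 to 0.16, from -0.34 to -0.1 and from 0.0 to 0.14. Called under all 15 alternatives were Nsdhl and Hsd17b7 in PQ against control, Scd1 and Scd2 in NAC against control, and Pmvk, Fdps, Fdft1, Cyp51, Msmo1, Nsdhl, Hsd17b7 and Scd1 in PQ against NAC. DESeq2 called 8, 4 and 16 members, among 1672, 1718 and 2980 of all genes tested. On FPKM plus 1, limma called 8, 4 and 12 members, among 1854, 1906 and 3514 genes. In NAC against control, Hmgcs1 changed sign to 0.02 with library size only and to 0.03 on FPKM with either pseudocount, and Srebf2 to 0.03 in all 3. The other sign changes came with 1 library left out and are given as ranges of the log2 fold change. In PQ against control they were Acat2 -0.06 to 0.24, Mvk -0.16 to 0.08, Fdps -0.05 to 0.21, Lss -0.02 to 0.41, Ebp -0.11 to 0.05, Stard4 -0.15 to 0.17, Acly -0.13 to 0.18, Fasn -0.44 to 0.14, Elovl6 -0.02 to 0.29 and Scd2 -0.25 to 0.01. In NAC against control they were Hmgcs1 -0.1 to 0.07, Mvd -0.2 to 0.34, Idi1 -0.01 to 0.18, Ggps1 -0.13 to 0.04, Sqle -0.17 to 0.04, Lss -0.32 to 0.1, Hsd17b7 -0.07 to 0.18, Dhcr7 -0.3 to 0.11, Stard4 -0.17 to 0.03, Fasn -0.24 to 0.33, Srebf1 -0.04 to 0.24, Srebf2 -0.08 to 0.06 and Insig1 -0.15 to 0.06. In PQ against NAC they were Idi1 -0.04 to 0.23, Stard4 -0.08 to 0.24, Acaca -0.15 to 0.02 and Insig2 -0.04 to 0.11. The cause was not tested. With 2 libraries a group, a member that did not pass may still differ.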
